A study of Mus musculus with 16 samples.

Results

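The transcripts of 10 genes that mark microglia were followed in sorted mouse astrocytes of 2 regions, the thalamus and the spinal cord. The genes were P2ry12, Cx3cr1, Csf1r, Tmem119, Aif1, Trem2, Tyrobp, C1qa, C1qb and C1qc. They were taken by symbol from a table of 39171 features as a measure of microglial RNA in the sorted cells. All 10 had a row. The study sorted astrocytes with and without the signal of an Il33 reporter, Il33 being the gene of a cytokine that acts on microglia among other cells. All 4 mice were C57BL/6 animals at postnatal day 15 with the genotype IL-33-mCherry (het)/Aldh1l1-GFP+, so negative and positive cells alike came from animals with 1 reporter copy at Il33 and a GFP reporter of the astrocyte gene Aldh1l1. Each mouse gave 4 libraries, negative and positive cells of the thalamus and negative and positive cells of the spinal cord, and each of these 4 groups held 4 libraries, 16 in all. No group was a pool of animals by the labels, and the sources used here do not say how GFP entered the sort.

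Microglia are the resident macrophages of the brain and spinal cord and arise from a lineage other than that of astrocytes. They depend on signals through CSF1R, extend processes along nucleotide gradients sensed by P2RY12, and receive the neuronal chemokine fractalkine through CX3CR1. They make most of the brain's C1q, the protein of 3 chains that starts the classical complement cascade, and take up synaptic material during postnatal development. TREM2 is a lipid-sensing receptor that signals through the adaptor TYROBP. AIF1 is the actin-binding protein known as IBA1, and TMEM119 is a surface protein widely used to tell microglia from other macrophages.

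Promoter windows, from 250 bases before to 50 bases after the transcript start, were available from RefSeq (GRCm38.p6) for 6 of the 10 genes. The other genes were C1qa, Csf1r, Tmem119 and Tyrobp. The windows of 3 genes are shown, P2ry12 because it carried the difference in the spinal cord, and C1qb and C1qc because these neighbouring genes encode chains of 1 protein and are compared library by library. All 3 genes lie on the minus strand, and each window reads 5′ to 3′ along the gene. RefSeq starts P2ry12 upstream of its GENCODE model, so that window ends outside the GENCODE span of the gene. Capitals mark the letters GAGGAA, or TTCCTC for the same letters on the other strand, the core of the sequence bound by the myeloid transcription factor PU.1.
P2ry12 (chr3:59262936-59263235): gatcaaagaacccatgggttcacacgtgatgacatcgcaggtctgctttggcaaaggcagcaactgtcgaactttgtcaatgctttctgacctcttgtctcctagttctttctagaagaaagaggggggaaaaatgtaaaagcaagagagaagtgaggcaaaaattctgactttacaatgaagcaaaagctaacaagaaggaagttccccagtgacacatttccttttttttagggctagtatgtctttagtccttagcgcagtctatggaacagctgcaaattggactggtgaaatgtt
C1qb (chr4:136886151-136886450): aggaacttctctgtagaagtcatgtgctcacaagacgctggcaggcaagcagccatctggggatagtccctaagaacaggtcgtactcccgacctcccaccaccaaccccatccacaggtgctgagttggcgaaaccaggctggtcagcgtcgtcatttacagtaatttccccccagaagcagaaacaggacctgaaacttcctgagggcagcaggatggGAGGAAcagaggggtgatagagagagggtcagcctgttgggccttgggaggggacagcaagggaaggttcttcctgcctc
C1qc (chr4:136892865-136893164): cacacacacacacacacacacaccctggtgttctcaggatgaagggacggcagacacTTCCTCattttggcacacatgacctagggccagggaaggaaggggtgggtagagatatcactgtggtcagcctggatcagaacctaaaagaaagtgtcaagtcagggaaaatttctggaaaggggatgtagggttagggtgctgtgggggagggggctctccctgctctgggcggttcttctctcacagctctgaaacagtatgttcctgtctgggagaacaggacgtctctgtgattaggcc
These letters occurred once on the gene's own strand in C1qb, and once on the other strand in C1qc, Trem2 and Aif1. They were not found in the windows of P2ry12 and Cx3cr1. Of 32851 promoter windows of the same length, 28.3% held them on either strand, so a match is a description of the letters and not a site.

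Values are FPKM, fragment counts scaled by transcript length and library size, as the authors deposited them. Because FPKM is set per length, levels can be compared between genes. Summed over all features, a library held 984986 to 2344483 FPKM, transcripts of the mitochondrial genome took 43.7% to 73.9% of it, and 13260 to 14731 features reached 1 FPKM. Both moved with the gate: in 8 of 8 pairs of libraries from 1 mouse and region the negative library had the higher mitochondrial share and fewer features at 1 FPKM. The share was 62.7 ± 7.91% in negative and 54.9 ± 2.49% in positive thalamus cells, and 57.1 ± 11.0% and 46.2 ± 2.25% in those of the cord (SD, n = 4). With FPKM scaled to the non-mitochondrial sum, the 2 markers called within a region below kept those calls by limma. P2ry12 in the spinal cord had a log2 change of -1.10 (adjusted p 0.0182) and Csf1r in the thalamus one of -0.75 (adjusted p 0.0416). The call of P2ry12 over the mean of both regions was lost under this scaling, as given in the last section. The part of the lower number of features in negative libraries was not tested. Il33 averaged 18.6 ± 6.01 and 27.4 ± 3.41 FPKM in negative and positive cells of the thalamus, and 24.6 ± 7.93 and 27.9 ± 3.49 FPKM in the same cells of the spinal cord (SD, n = 4). By limma the adjusted p of Il33 was 0.0736 for thalamus and 0.559 for spinal cord, missing the threshold of 0.05 in both. It was higher in positive cells in 4 of 4 mice for thalamus, where the unadjusted p was 0.0218, and in 3 of 4 for spinal cord. Aldh1l1 lay at 14.7 to 38.3 FPKM in every library. Xist ran from 175 to 468 FPKM in mouse 1 and stayed at or below 1.46 FPKM in the other mice, so a result without mouse 1 is also a result without the only mouse with high Xist.

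Transcripts of the microglia markers were low throughout. Of the 160 values, 10 genes in 16 libraries, 83 reached 1 FPKM, 7 reached 5 FPKM, 1 reached 10 FPKM and 13 were listed at 0. The 10 genes together summed to 22.4 ± 7.65 FPKM in the negative and 13.3 ± 3.13 FPKM in the positive thalamus group (SD, n = 4). The spinal cord groups had sums of 17.8 ± 1.26 FPKM, negative, and 8.63 ± 1.02 FPKM, positive. The negative thalamus sums ran from 11.6 to 28.3 FPKM and overlapped those of the next 2 groups in order, while the 4 positive spinal cord sums, from 7.42 to 9.72 FPKM, lay below every other library. For scale, 12 astrocyte genes, led by the sodium pump subunit gene Atp1b2 and the glutamate transporter gene Slc1a2, summed to 5787 to 15036 FPKM. In bulk RNA of this kind, fewer microglia in a sort and less RNA per microglial cell cannot be told apart. Nor do the values show which cells these transcripts came from.

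**Figure D1:**
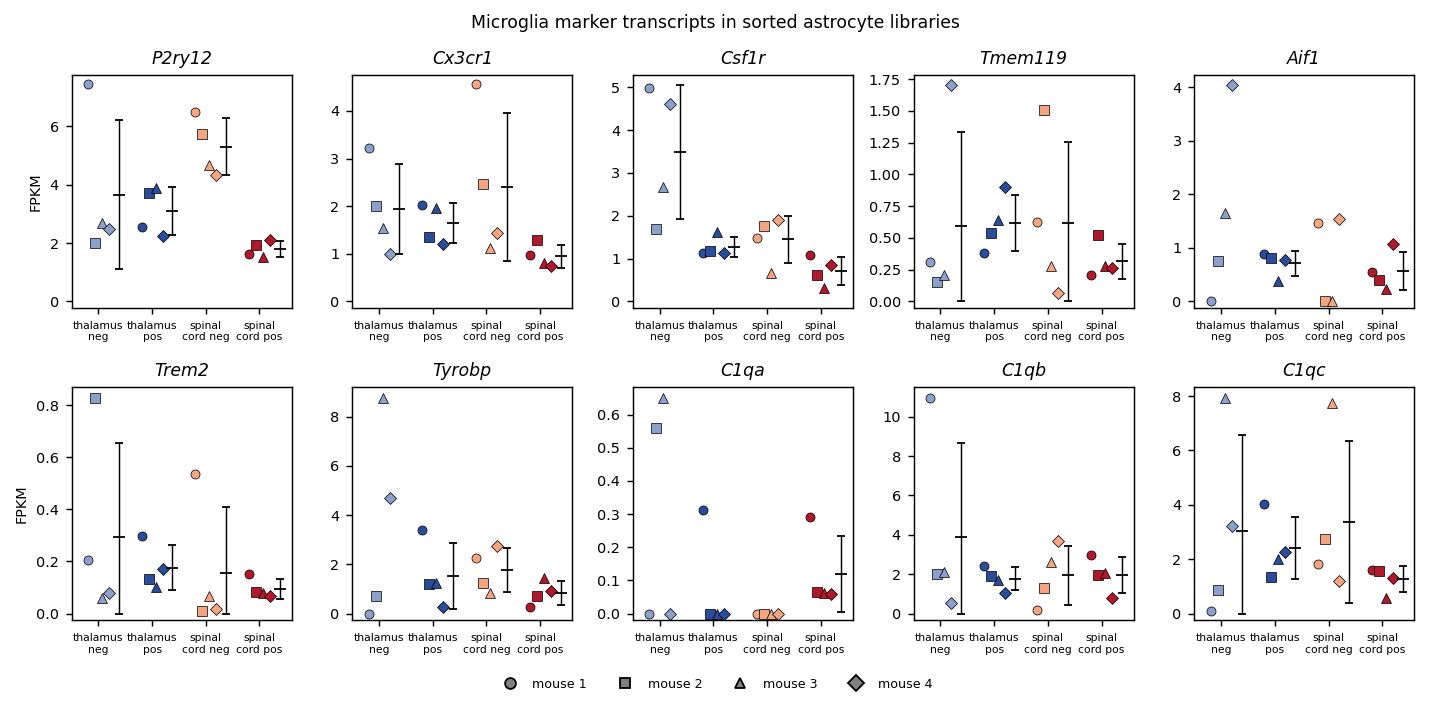
FPKM of each of the 10 microglia markers (y axis, linear, a scale of its own per gene) in the 4 groups (x axis); each point is 1 library, its shape the mouse, and the bars beside each group are the mean and SD (n = 4, lower end stopped at 0), left out where a library was listed at 0. P2ry12 in the spinal cord and Csf1r in the thalamus are the 2 genes whose positive points all lie below the negative ones, and single libraries stand far above the rest for C1qb, Tmem119 and P2ry12 in the negative thalamus.

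Among the receptors, P2ry12 was the highest marker in 2 of the 4 groups. In negative spinal cord libraries of mice 1 to 4 it stood at 6.49, 5.75, 4.66 and 4.34 FPKM, and in positive ones at 1.61, 1.93, 1.53 and 2.11 FPKM. Every positive library lay below every negative library. The log2 fold change of FPKM + 1 was -1.17 (SE 0.28, 95% interval -1.77 to -0.56), with an adjusted p of 0.00928 by limma, and the level was lower in 4 of 4 mice. Without mouse 3 the adjusted p was 0.0648 with a log2 change of -1.17. Over all 28 alternatives the adjusted p ran from 0.000396 to 0.0648.

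In the thalamus P2ry12 stood at 7.46, 2.00, 2.67 and 2.48 FPKM in negative libraries of mice 1 to 4 and at 2.56, 3.72, 3.90 and 2.23 FPKM in positive ones. The groups overlapped, and mouse 1 alone was high among the negative libraries. The log2 change was -0.07 (95% interval -0.67 to 0.53). The difference between the regions in this change, spinal cord minus thalamus, was -1.09 (SE 0.40, 95% interval -1.95 to -0.24) and missed the threshold, with an adjusted p of 0.198 by limma. Without the negative thalamus library of mouse 1 it was -1.43 with an adjusted p of 0.00894, within a range of 0.00894 to 0.575 over the alternatives. By group mean the order was negative spinal cord at 5.31 ± 0.99, negative thalamus at 3.65 ± 2.55, positive thalamus at 3.10 ± 0.83 and positive spinal cord at 1.80 ± 0.27 FPKM (SD, n = 4). The negative thalamus group overlapped each of the other groups, with its lowest library at 2.00 FPKM and the highest of the positive spinal cord at 2.11 FPKM. The positive spinal cord libraries lay below every positive thalamus library and every negative spinal cord library.

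The P2ry12 gene (chr3:59216272-59262871, GRCm38, minus strand) lies inside Med12l, which runs along the opposite strand and codes for a subunit related to the Mediator complex. Of the 2546 exonic bases of P2ry12, 9 are also exonic in Med12l, and the sources used here do not say whether reads were counted by strand. Med12l averaged 7.13 ± 3.67 and 14.5 ± 1.84 FPKM in negative and positive cells of the thalamus, and 8.55 ± 2.21 and 12.7 ± 1.72 FPKM in the same cells of the spinal cord (SD, n = 4). Med12l thus had its higher mean in positive cells of both regions, where P2ry12 had its lower one. By limma the log2 change of Med12l was 1.02 in the thalamus (adjusted p 0.00976) and 0.54 in the spinal cord (adjusted p 0.157). The ratio of P2ry12 to Med12l ran from 0.378 to 1.06 in negative and from 0.118 to 0.174 in positive spinal cord libraries. In the thalamus the ratios overlapped, from 0.216 to 1.54 in negative and from 0.133 to 0.278 in positive libraries.

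**Figure D2:**
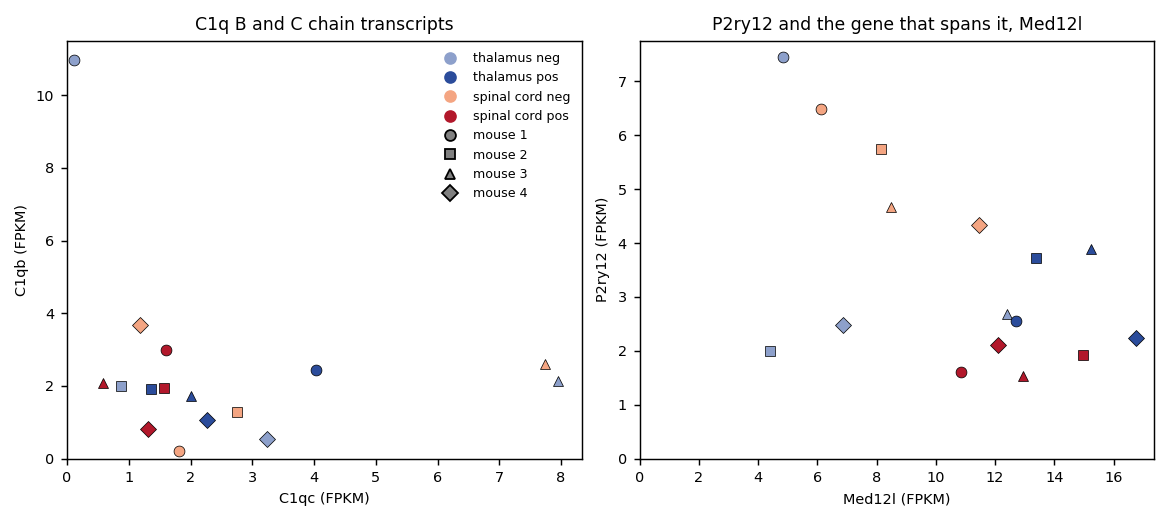
Left, C1qb against C1qc, and right, P2ry12 against Med12l, both axes linear in FPKM; each point is 1 of 16 libraries, its colour the group and its shape the mouse. The C1q chains do not lie along a line, with 1 negative thalamus library at 11.0 FPKM of C1qb and 0.109 FPKM of C1qc, and the negative spinal cord libraries have the highest P2ry12 apart from the negative thalamus library of mouse 1.

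Csf1r, the growth factor receptor that microglia need to survive, gave the call in the thalamus. Negative thalamus libraries of mice 1 to 4 held 4.99, 1.69, 2.66 and 4.61 FPKM, and positive ones 1.14, 1.19, 1.61 and 1.12 FPKM. No positive library reached the lowest negative one, although the gap between the nearest libraries, 1.69 and 1.61 FPKM, was small. The log2 change was -0.92 (SE 0.26, 95% interval -1.48 to -0.35), with an adjusted p of 0.0203 by limma, and the level was lower in 4 of 4 mice. The call rested on single animals and on the other groups in the fit. Without mouse 1 the log2 change was -0.73 with an adjusted p of 0.108, and without mouse 4 it was -0.76 with an adjusted p of 0.15. Without the negative or the positive library of mouse 4 alone the adjusted p was 0.0566 and 0.052, and with only the 2 thalamus groups fitted it was 0.0511. The alternatives ranged from 0.0047 to 0.15.

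Spinal cord Csf1r stood at 1.49, 1.75, 0.659 and 1.90 FPKM in negative and at 1.09, 0.623, 0.316 and 0.848 FPKM in positive libraries. The positive library was the lower one in 4 of 4 mice, but the groups overlapped, and the log2 change of -0.50 (95% interval -1.06 to 0.07) had an adjusted p of 0.207 by limma. The difference between regions was 0.42 (95% interval -0.38 to 1.22, adjusted p 0.67 by limma), so the changes of Csf1r in the regions were not shown to differ. Csf1r, on chromosome 18, shares 873 of its 5774 exonic bases with Hmgxb3 on the opposite strand. Hmgxb3 averaged 1.69 ± 1.22, 2.06 ± 0.25, 2.53 ± 1.20 and 1.86 ± 0.36 FPKM in negative thalamus, positive thalamus, negative spinal cord and positive spinal cord (SD, n = 4), and it was called by limma in neither region (adjusted p 0.514 for thalamus and 0.609 for spinal cord).

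Cx3cr1, the fractalkine receptor, held 4.57, 2.46, 1.12 and 1.43 FPKM in negative cells of the spinal cord, and 0.970, 1.28, 0.798 and 0.745 FPKM in positive ones. The positive library was the lower one in 4 of 4 mice, but the groups overlapped. The log2 change of -0.70 (95% interval -1.33 to -0.08) missed the threshold at an adjusted p of 0.107 by limma. In the thalamus Cx3cr1 stood at 3.21, 2.00, 1.54 and 1.00 FPKM in negative and at 2.02, 1.36, 1.97 and 1.20 FPKM in positive libraries, a log2 change of -0.12 (95% interval -0.74 to 0.51). The annotated span of Cx3cr1 also contains Gorasp1, Ttc21a, Csrnp1 and Xirp1 and overlaps Wdr48 in part, with 0 exonic bases in common. In negative thalamus, positive thalamus, negative spinal cord and positive spinal cord, Wdr48 averaged 7.70, 5.41, 6.87 and 5.95 FPKM and Gorasp1 averaged 3.39, 3.18, 2.98 and 3.53 FPKM. In the same order Ttc21a averaged 5.56, 0.0324, 1.43 and 0.0617 FPKM and Csrnp1 averaged 1.47, 2.29, 0.352 and 1.45 FPKM. Xirp1 averaged at most 0.0970 FPKM in any group.

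The markers most often used for microglia by antibody were lower still. Tmem119 stood at 0.313, 0.152, 0.204 and 1.70 FPKM in negative and at 0.377, 0.541, 0.643 and 0.900 FPKM in positive thalamus libraries. Spinal cord levels were 0.622, 1.51, 0.279 and 0.0687 FPKM in negative and 0.205, 0.519, 0.278 and 0.267 FPKM in positive libraries. In both regions the groups overlapped, and the highest value of each negative group came from a different mouse. Aif1 was listed at 0 in 1 negative thalamus library, the others holding 0.759, 1.65 and 4.03 FPKM, and at 0.372 to 0.878 FPKM in positive thalamus libraries. Negative spinal cord cells of mice 2 and 3 also had it at 0, and the gene stood at 1.47 and 1.53 FPKM in those of mice 1 and 4, and at 0.239 to 1.07 FPKM in positive ones. Its log2 change was -0.38 in the thalamus (95% interval -1.31 to 0.55) and -0.04 in the spinal cord (95% interval -0.97 to 0.89).

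Of the receptor pair, Trem2 never reached 1 FPKM and ran from 0.00965 to 0.828 FPKM over the 16 libraries. Its adaptor Tyrobp was listed at 0 in the negative thalamus library of mouse 1 and at 0.723, 8.77 and 4.70 FPKM in those of mice 2 to 4. Positive thalamus libraries held 3.41, 1.20, 1.23 and 0.257 FPKM of Tyrobp. Spinal cord Tyrobp stood at 2.27, 1.24, 0.851 and 2.73 FPKM in negative and at 0.274, 0.722, 1.45 and 0.920 FPKM in positive libraries. The groups overlapped in both regions, and mouse 1 went up and mouse 3 down from negative to positive thalamus cells. The log2 change of Tyrobp was -0.46 in the thalamus (95% interval -1.72 to 0.81) and -0.57 in the spinal cord (95% interval -1.84 to 0.69).

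The 3 genes of the C1q chains lie side by side on chromosome 4 and did not follow one another. C1qb, the B chain, stood at 11.0, 1.99, 2.14 and 0.545 FPKM in negative thalamus libraries of mice 1 to 4, where C1qc, the C chain, stood at 0.109, 0.880, 7.94 and 3.23 FPKM. The library highest in C1qb was thus the lowest in C1qc. In negative spinal cord libraries C1qb stood at 0.209, 1.29, 2.60 and 3.67 FPKM and C1qc at 1.81, 2.75, 7.75 and 1.18 FPKM. The ratio of C1qb to C1qc ran from 0.168 to 100.7 in negative thalamus and from 0.116 to 3.10 in negative spinal cord libraries. In positive libraries it was narrower, from 0.469 to 1.41 in the thalamus and from 0.616 to 3.59 in the spinal cord.

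C1qa, the A chain, was listed at 0 in 9 of 16 libraries, among them all 4 of the negative spinal cord. Elsewhere it ran from 0.0604 to 0.651 FPKM. The positive spinal cord libraries of mice 2 to 4 held 0.0642, 0.0631 and 0.0604 FPKM of C1qa. In these libraries the low end of 1146 single-transcript features of 940 to 1140 bases, the length class of C1qa, lay at 0.0408 to 0.0444 FPKM (5th percentile of nonzero values), so C1qa was close to the lowest level that could be listed. By limma the log2 change of C1qb was -0.41 in thalamus (95% interval -1.55 to 0.73) and 0.13 in spinal cord (95% interval -1.01 to 1.27). For C1qc it was 0.14 (95% interval -1.05 to 1.33) and -0.76 (95% interval -1.95 to 0.43). The mean FPKM of C1qc in the thalamus was lower in positive cells, 2.42 against 3.04 FPKM, so its difference on the linear and on the log scale had opposite signs.

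The filter of at least 1 FPKM in at least 4 libraries kept 7 of the 10 markers and left out Tmem119, Trem2 and C1qa. Of the 7 tested, 1 was called in the thalamus, Csf1r, lower in positive cells, against 25.2% of the 16340 features tested there in either direction and 13.6% called lower. It was also the 1 tested marker whose positive libraries all lay below the negative ones, beside 14.2% of features. In the spinal cord 1 of 7 was called, P2ry12, also lower, against 19.6% in either direction and 10.5% lower. It alone had all positive libraries below the negative ones there, beside 14.1% of features. Over the mean of both regions 2 of 7 were called lower, P2ry12 with a log2 change of -0.62 (adjusted p 0.0238) and Csf1r with -0.71 (adjusted p 0.00832), against 38.6% of features in either direction and 18.9% lower. These shares of the markers were near those of all features. The median log2 change of the 7 markers was -0.38 for thalamus and -0.57 for spinal cord, beside 0.06 and 0.09 over all features. Their mean FPKM was lower in positive cells for 7 of 7 in the thalamus and 6 of 7 in the spinal cord, beside 51.6% and 49.6% of all features tested. The thalamus count was 4 of 7 without the negative library of mouse 1, and the spinal cord count was 5 of 7 without the negative library of mouse 4. Within mice, P2ry12, Cx3cr1, Aif1, C1qc and Tyrobp were each lower in positive thalamus cells in 2 mice and higher in 2. Mean Tmem119, which the filter left out, was 0.593 FPKM in the negative thalamus group and 0.616 FPKM in the positive one. Trem2 and C1qa, also left out, had lower means in positive thalamus cells. In the spinal cord Tmem119 and Trem2 had lower means in positive cells, while C1qa, near its floor, was higher in 4 of 4 mice. Trem2 was higher in positive cells in 3 of 4 mice of each region. Aif1 passed the filter with 2 libraries at 1 FPKM or more in each negative group. The positive thalamus had 0 and the positive spinal cord 1. Its direction was thus not independent of the filter. Without the filter, limma gave adjusted p-values of 0.883, 0.747 and 0.362 for thalamic Tmem119, Trem2 and C1qa, and of 0.703, 0.929 and 0.61 for the same genes in the spinal cord.

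**Figure D3:**
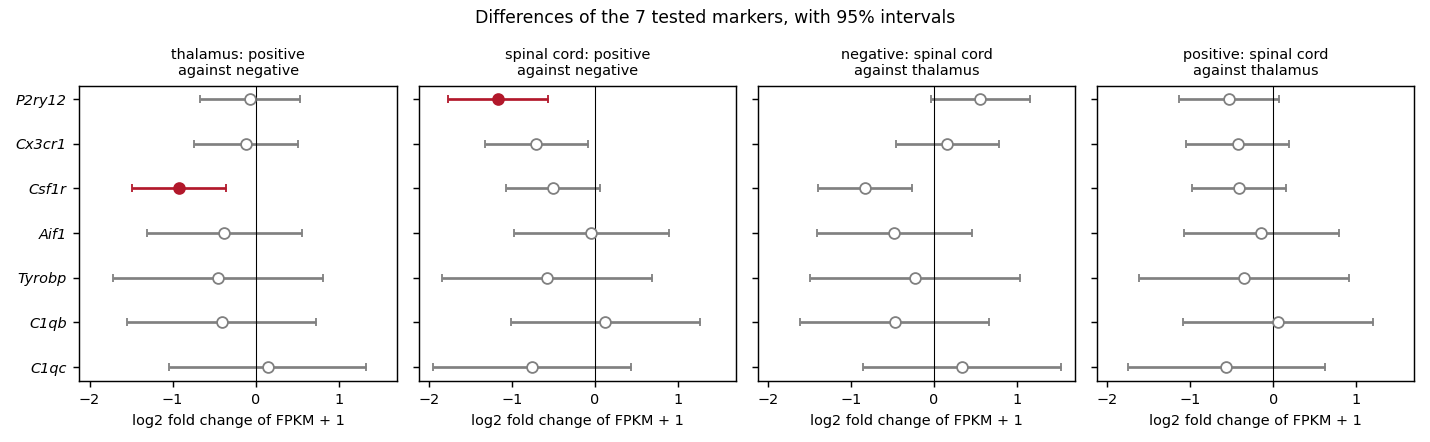
Log2 fold change of FPKM + 1 (x axis) of the 7 tested markers (y axis) in the 4 comparisons between groups; points are limma estimates, lines 95% intervals, and filled red points have an adjusted p under 0.05. Csf1r in the thalamus, at -0.92, and P2ry12 in the spinal cord, at -1.17, are the filled points, and the intervals of Tyrobp, C1qb and C1qc are the widest.

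Between the regions no tested marker passed the threshold. By limma 0 of 7 were called in negative cells, where 9.81% of all features were, and 0 of 7 in positive cells, where 6.1% were. At an unadjusted p under 0.05 the counts were 1 and 0, and for the difference between regions in the reporter change 1, with 0 called against 2.56% of all features. Csf1r came nearest in negative cells, with spinal cord below thalamus by a log2 change of -0.83 (95% interval -1.40 to -0.27, adjusted p 0.0625). Without the negative thalamus library of mouse 2 its adjusted p was 0.0155, and without mouse 2 it was 0.0498, in a range of 0.0155 to 0.321. P2ry12 in negative cells, at 0.56 with an adjusted p of 0.257, passed at 0.00977 without the negative thalamus library of mouse 1 and at 0.0469 without mouse 1, in a range of 0.00977 to 0.615. In positive cells P2ry12 and Csf1r were lower in every spinal cord library than in every thalamus library, 2 of 7 markers beside 14.1% of all features. Their log2 changes there were -0.54 (adjusted p 0.352) and -0.41 (adjusted p 0.476) by limma. With only the 2 positive groups fitted P2ry12 had an adjusted p of 0.0392, in a range of 0.0392 to 0.803.

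The median marker varied more between mice than the median feature did. The median SD of log2(FPKM + 1) over the 7 tested markers was 0.983 for negative and 0.297 for positive cells of the thalamus, beside 0.538 and 0.221 over all 16340 features. For the spinal cord the values were 0.622 and 0.314, beside 0.470 and 0.193. On this scale the added 1 FPKM narrows the spread of the lowest genes. The part of the markers' low level in their spread was not tested. Nor did the markers move as 1 group: over the 16 libraries, which come from 4 mice and share groups, the median Pearson r of their 21 pairs was 0.08, with 9 pairs below 0. The highest r was 0.75, for P2ry12 with Cx3cr1, and 0.68 for Aif1 with Tyrobp. For 12 oligodendrocyte genes the median r over the same libraries was 0.97 and for 10 ependymal genes 0.94. Within groups the medians were -0.04, 0.32 and 0.21. The 10 endothelial genes had a mean sum of 15.1 FPKM, beside 15.5 FPKM for the markers. Their median r was 0.66 over the libraries and 0.02 within groups. Over all lists with enough tested genes the within-group median ran from -0.19 for border macrophage genes to 0.35 for astrocyte genes. It was -0.04 for the other homeostatic microglia genes and 0.05 for those of the myeloid lineage and lysosome. The part of low level in these correlations was not tested.

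Among 11970 protein-coding genes, those most like the mean log2 level of the 10 markers over the 16 libraries were Apba1 with r = 0.87, Tro, Tspan15 and Col4a1 with 0.85 to 0.84, and Asrgl1, Frrs1l, Kif9 and Nnat with 0.82 to 0.81. Gene by gene, the closest was Pou1f1 for P2ry12, Wnk3 for Cx3cr1, Megf11 for Csf1r, Ncapd2 for Tmem119, Aprt for Aif1, Ankle1 for Trem2, Ttl for Tyrobp, Dgcr14 for C1qa, Dcp1b for C1qb and Kif21b for C1qc, with r from 0.82 to 0.91. By rank (Spearman) these correlations were lower, from 0.66 for Dcp1b to 0.90 for Megf11. All these genes were picked as the closest of 11970, so a high r follows in part from the choice. The mean of the markers had r above 0.5 with 10 of 10 ependymal and 10 of 12 oligodendrocyte genes, beside 9.12% of all features. The counts were 2 of 12 for other homeostatic microglia genes and 1 of 6 for genes of the myeloid lineage and lysosome. They were 1 of 10 for endothelial, 2 of 7 for neuron, 2 of 11 for complement and 0 of 12 for astrocyte genes. This r includes the differences between groups, so a gap between the gates in the same direction raises it. Likeness within groups was not tested.

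Genes of other cell types were read beside the markers, and oligodendrocyte and ependymal genes moved with the gates in both regions. Oligodendrocyte genes, among them the myelin gene Mbp, summed to 491 to 1001 FPKM in negative and 78.5 to 115 FPKM in positive thalamus libraries, and to 3610 to 3812 FPKM and 158 to 171 FPKM in those of the spinal cord. They were called lower in 11 of 12 and in 12 of 12. Ependymal genes, led by the cilium genes Cfap54 and Enkur, summed to 341 to 619 FPKM in negative and 6.86 to 8.57 FPKM in positive thalamus libraries and to 115 to 159 and 3.97 to 6.77 FPKM in the spinal cord, with 10 of 10 lower in each. Endothelial genes, led by Pecam1 and Flt1, summed to 14.3 ± 3.09 and 4.50 ± 0.52 FPKM in the thalamus and to 37.3 ± 8.86 and 4.31 ± 0.65 FPKM in the spinal cord (SD, n = 4), with 2 and 8 of 10 lower. Neuron genes, led by Snap25 and Nefl, summed to 40.2 to 92.8 and 11.2 to 16.3 FPKM in the thalamus and to 39.9 to 64.2 and 22.8 to 31.6 FPKM in the spinal cord, with 3 and 1 of 7 lower. Their part in the lower P2ry12 and Csf1r of positive cells was not tested.

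**Figure D4:**
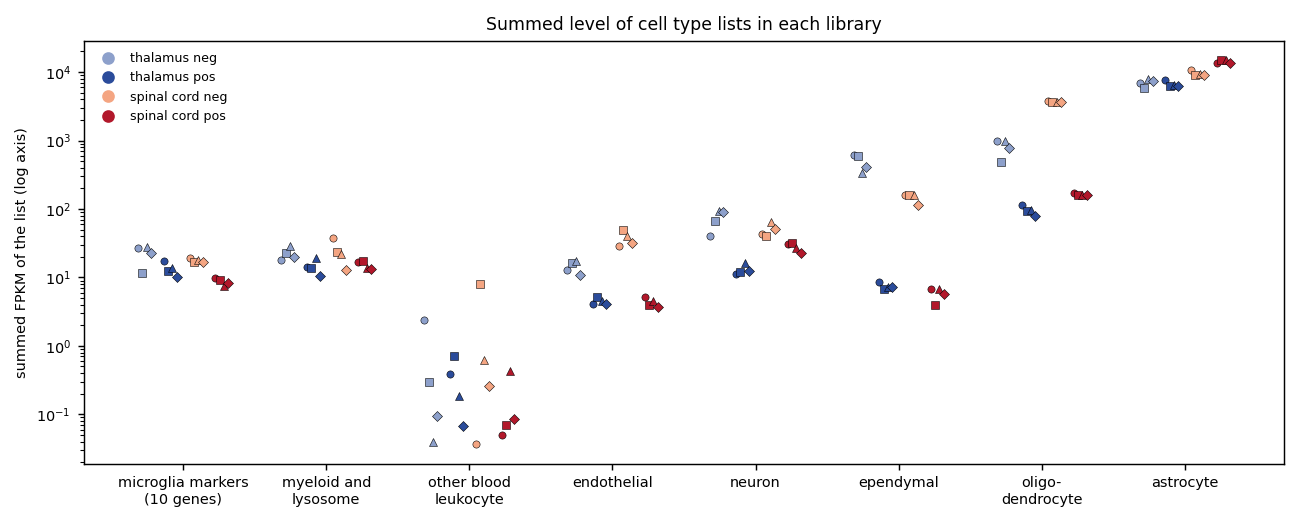
Summed FPKM (y axis, log scale) of the microglia markers and of 7 other cell type lists (x axis); each point is 1 library, its colour the group and its shape the mouse (circle 1, square 2, triangle 3, diamond 4). The 10 microglia markers sum to 7.42 to 28.3 FPKM in all libraries, while the ependymal sums fall from 341 to 619 FPKM in negative to 6.86 to 8.57 FPKM in positive thalamus libraries.

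Other genes of microglial biology were read from lists. Of 16 further homeostatic genes, 12 were tested, and 2 were called in each region, all higher in positive cells, where 11.6% of all features were called higher in the thalamus and 9.04% in the cord. In the thalamus these were Tgfbr1, a receptor of TGF-beta (log2 change 0.63, adjusted p 0.0432), and the adhesion receptor gene Adgrg1 (0.61, adjusted p 0.0447). Those of the spinal cord were Mertk, a receptor for the uptake of dying cells (1.68, adjusted p 0.00434), and Adgrg1 (1.37, adjusted p 0.000332). Over the mean of both regions 5 of 12 were called higher, beside 19.7% of all features. Astrocytes are also known to express Mertk and Adgrg1, the most abundant genes of the list with means of 50.8 and 142 FPKM. The median log2 change of the 12 was 0.07 in thalamus and 0.05 in spinal cord, close to the 0.06 and 0.09 of all features.

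Of 21 genes of the myeloid lineage and lysosome, 6 were tested, and the most abundant, Fcer1g and Laptm5, averaged 3.69 and 2.83 FPKM. By limma 0 of 6 were called in the thalamus, beside 25.2% of all features, with 1 at an unadjusted p under 0.05. For the spinal cord, Itgam, the integrin chain CD11b, was lower in positive cells (-0.96, adjusted p 0.0479) and the innate receptor gene Tlr2 was higher (1.34, adjusted p 0.00298). Tlr2 was also higher in positive cells of the spinal cord than of the thalamus (1.09, adjusted p 0.0281). Of 12 genes of TREM2 and TYROBP signalling, only the receptor kinase gene Axl and the lipase gene Lpl were tested, with means of 43.8 and 7.63 FPKM, and neither was called by limma or had an unadjusted p under 0.05 between the gates of a region.

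Transcripts of brain-border macrophages and blood leukocytes were mostly at or near 0. Of 10 border macrophage genes, led by Stab1 and Maf at means of 4.74 and 1.73 FPKM, Cbr2 and Cd209f were at 0 in every library, 3 were tested, and the sums ran from 5.41 to 15.8 FPKM. Cd163 was higher in positive thalamus cells (1.24, adjusted p 0.000873) and Maf lower in positive spinal cord cells (-0.73, adjusted p 0.0449) by limma. Of 10 leukocyte genes, led by S100a9 and Nkg7, which reached 6.49 and 2.27 FPKM in 1 library each and lay at 0 in others, 0 could be tested, and the sums ran from 0.0363 to 8.10 FPKM.

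Further complement genes and ligands of microglial receptors were read from 2 lists. Of 14 complement genes other than those of C1q, 11 were tested. In the thalamus 4 were called lower in positive cells, among them the complement inhibitor genes Cd55 (-2.20, adjusted p 4.29e-05) and Serping1 (-1.66, adjusted p 0.03) and the component gene C4b (-1.55, adjusted p 0.000931), and 2 were called higher, among them the C1s protease gene C1s1 (1.06, adjusted p 0.00312). Over all features tested in the thalamus, 13.6% were called lower and 11.6% higher. Spinal cord C3, which C1q acts on through its proteases and C4, was lower (-3.28, adjusted p 0.00135), as was Cd55 (-2.20, adjusted p 4.12e-05). Masp1 and C1ra, both protease genes, were higher there (1.34, adjusted p 0.0231, and 0.86, adjusted p 0.00111). Clu, an abundant extracellular chaperone gene with a mean of 268 FPKM, differed between regions in its reporter change by 1.16 (adjusted p 0.0284).

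All 9 ligands of microglial receptors were tested, led by Apoe, a TREM2 ligand with a mean of 1214 FPKM. By limma 0 of 9 were called in the thalamus, beside 25.2% of all features. Of the 9, in the spinal cord, 2 were called lower in positive cells, beside 10.5% of all features. They were Cd200 (-1.95, adjusted p 0.00833) and Cd47 (-1.30, adjusted p 0.000128), both surface proteins known to restrain microglia and macrophages. The change of Cd47 differed between the regions by -1.32 (adjusted p 0.0112), and its level in positive cells averaged 15.7 FPKM in the spinal cord and 42.1 FPKM in the thalamus. In the authors' deposited table of positive against negative libraries, which lists 444 features, 0 of the 10 microglia markers appeared. The highest adjusted p listed there, from the authors' own test, was 0.00976, well below the threshold for calls used here. Absence from that list therefore does not show that a marker would have missed the threshold used here in the authors' test.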

How the data were processed

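RNA was measured in 16 libraries from 4 mice. The submitters' processing notes list Cufflinks and Cuffnorm beside TopHat2 2.0.11 and Bowtie2 2.2.3, with HTSeq 0.6.1p1, DESeq2, FastQC and the build GRCm38, and give no order or role. The values are FPKM as the authors deposited them. Their deposited comparison table holds group means as signal, log2 fold changes, test scores and p-values, and served only to see whether the markers were listed. Its means equalled those of the FPKM table within a relative error of 2.7e-16. Median-of-ratios factors ran from 0.986 to 1.07, so the FPKM may already have been scaled between libraries.

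Features that reached 1 FPKM in 4 or more libraries, 16340 in all, were fitted with limma 3.58.1 (R 4.3.3) on log2(FPKM + 1), with 1 coefficient per group and a trended prior. Fold changes on this scale understate those of low genes. P-values were adjusted by Benjamini-Hochberg over all features of a comparison, with a threshold of 0.05, after the fit was tested on simulated data. Descriptions used Python 3.11.15 and SciPy 1.17.1. Low values fell on steps of whole fragments in 13 of 15 libraries set against a reference library, but counts were not recovered, so depth is not known and no counting interval is given.

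Mouse numbers pair the libraries, since equal numbers mark the same animal per the labels. Deviations from group means had a mean correlation of 0.036 over 24 same-mouse pairs (-0.014 to 0.092) and of -0.012 over 72 others. The markers and the 12 gene lists were chosen with earlier results of these data known. All 10 markers, Il33, Aldh1l1 and genes overlapping a marker were named, with the 8 genes most like the markers' mean, the closest per marker, up to 4 called genes per list and comparison by size of change, and the most abundant 2 of each list. Not every gene chosen this way is reported here. Coordinates are those of the GENCODE annotation of GRCm38. Alternatives were other pseudocounts, filters and scalings, mouse as a block, fits of only the groups compared, no trend, and leaving out each mouse and each library.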

Additional observations from a re-analysis of the deposited data

Results flagged for a closer look

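In 7 of the 40 groups of 4 libraries, 10 markers in 4 groups, a single library stood apart from the others by Dixon's ratio. Chance gives about 1 in 20 for normally distributed values free to vary, which FPKM need not be. For C1qa in the positive thalamus the other libraries were at 0, so any value above 0 gives the largest ratio, and that rate does not hold for values at such a floor. Nor does it hold for C1qa in the positive spinal cord, where the other libraries were close to the lowest level that could be listed. C1qa of the negative spinal cord, at 0 in all 4 libraries, could not be flagged. In the negative thalamus the flagged values were P2ry12 of mouse 1 at 7.46 FPKM, against 2.00 to 2.67 FPKM in the other libraries, C1qb of mouse 1 at 11.0 FPKM, against 0.545 to 2.14 FPKM, and Tmem119 of mouse 4 at 1.70 FPKM, against 0.152 to 0.313 FPKM. In the positive thalamus they were Csf1r of mouse 3 at 1.61 FPKM, against 1.12 to 1.19 FPKM, and C1qa of mouse 1 at 0.314 FPKM, against 0 in the others. In the spinal cord they were Trem2 of mouse 1 at 0.534 FPKM in negative cells, against 0.00965 to 0.0678 FPKM, and C1qa of mouse 1 at 0.291 FPKM in positive cells, against 0.0604 to 0.0642 FPKM. All 7 were high values, and 5 of the 7 came from mouse 1, the only mouse with high Xist. The negative thalamus library of mouse 1 also had the largest summed FPKM of the 16, 2344483; the part of either in these values was not tested.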

How the results depend on the processing

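The marker changes called by limma kept their sign under every alternative run. Of the 7 tested markers, 6 turned sign under at least 1 alternative in the thalamus, all but Csf1r, 2 in the spinal cord, Aif1 and C1qb, and 3 for the difference between regions, Aif1, C1qb and Tyrobp. P2ry12 in the thalamus ran from -0.31 to 0.32. The number of markers called was 1 in the thalamus and 0 with only its 2 groups fitted, 2 over the mean of both regions and 1 after scaling to non-mitochondrial FPKM, where P2ry12 had -0.49 with an adjusted p of 0.0771 in a range of 0.0125 to 0.0865, and 0 between regions in positive cells and 1 with only those groups fitted. Leaving out a mouse or a library gave 0 to 1 marker in the thalamus, 0 to 1 in the spinal cord, 0 to 2 over their mean, 0 to 1 for the difference between regions, 0 to 1 between regions in negative cells and 0 to 0 in positive cells. With mouse as a replicate block the counts were 1, 1, 2, 0, 0 and 0, and the block changed no call: P2ry12 in the spinal cord had an adjusted p of 0.0157 and Csf1r in the thalamus of 0.0212. Over the mean of both regions Csf1r had -0.60 with an adjusted p of 0.0782 without mouse 4, in a range of 0.00186 to 0.0782. Scaling to non-mitochondrial FPKM moved the median of all features by 0.19 in the thalamus, 0.13 over the mean, -0.13 for the difference and -0.10 between regions in positive cells. A filter at 5 FPKM in 4 libraries left no marker to test. The cause of these shifts was not tested. The levels, mostly under 5 FPKM, limit what could be seen.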
